A study of Homo sapiens with 13 samples.

Results

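Aminoacyl-tRNA synthetases were followed here through the genes of 36 enzymes, picked by gene symbol from 38369 gene rows: 20 cytosolic enzymes, and 16 mitochondrial enzymes whose names end in 2. All 36 were measured in every library used. RNA had been polyA-selected from MCF10A, an immortalised and non-tumorigenic line of human breast epithelial cells that the labels nevertheless list under breast cancer. MCF10A-Src cells, which carry a Src oncoprotein switched on by tamoxifen, were sampled at 0 h (1 library), 4 h (2 libraries), 12 h (1 library) and 36 h (2 libraries) of tamoxifen. Parental MCF10A cells without the Src construct were sampled 72 h after transduction with the long noncoding RNA LINC00520 (2 libraries) or after mock transduction, labelled untransduced (3 libraries). The series also holds 2 samples transduced with a control lincRNA, which matched no column by name and were not analysed here. No vector-only group was used, so LINC00520 and the act of transduction cannot be told apart in this comparison. There was no time-matched group without tamoxifen, so time in culture and Src cannot be told apart either.

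Each aminoacyl-tRNA synthetase joins 1 amino acid to its matching tRNA, the step that fixes the genetic code before the ribosome reads it. The cytosol and the mitochondria mostly use enzymes from separate nuclear genes, while GARS (glycine) and KARS (lysine) serve both compartments from 1 gene each. Several cytosolic enzymes sit in the multisynthetase complex, held by the scaffold proteins AIMP1, AIMP2 and EEF1E1, and many cytosolic synthetase genes are known targets of ATF4, the transcription factor that raises amino acid supply when amino acids run short.

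Depth ranged from 12.6 to 52.3 M fragments per library. Levels are given as CPM (fragment counts relative to library size, after edgeR's TMM scaling), which compares 1 gene across libraries, or as FPKM (fragments divided by transcript length and library size), which also compares genes. LINC00520 itself stood at 0.142 ± 0.0558 CPM in untransduced cells (SD, n = 3) and 46.1 ± 0.166 CPM in transduced cells (SD, n = 2), as the labels imply. Replicates were close in the over-expression experiment, where the median coefficient of variation of the members' FPKM was 1.72% in untransduced and 2.08% in LINC00520 libraries. They were less close in the time course, with 13.4% at 4 h and 3.62% at 36 h. The labels do not tell whether replicates were separate cultures, so a p-value here reflects the spread among libraries, possibly a technical one. In bulk RNA, fewer cells of a type and less RNA per cell cannot be told apart.

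Promoter sequences are shown for the members that hold the ATF4 element, since most of these members are known ATF4 targets. ATF4 binds, with a C/EBP partner, an element written here as TGATGNAA, which was searched on both strands from 250 bases before to 50 after each RefSeq start site (GRCh38.p14). A window was found for 30 of the 36 members, and 8 held the element. Of cytosolic enzymes known as ATF4 targets, 7 of 10 with a window held it, against 0 of 6 other cytosolic enzymes and 1 of 14 mitochondrial enzymes. Among all 27305 genes with a window, 4.46% held it in at least 1 window. A match is a description of the letters and not evidence of binding. Each line gives 30 bases on the gene's own strand, 5′ to 3′, with the element or its reverse complement in capitals.
AARS: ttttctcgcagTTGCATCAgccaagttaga
CARS: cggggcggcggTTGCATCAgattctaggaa
GARS: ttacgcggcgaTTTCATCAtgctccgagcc
IARS: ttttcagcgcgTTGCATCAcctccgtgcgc
MARS: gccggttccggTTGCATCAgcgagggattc
NARS: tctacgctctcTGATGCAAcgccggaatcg
TARS: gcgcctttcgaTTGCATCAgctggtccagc
YARS2: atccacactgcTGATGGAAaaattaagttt

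These lie at chr16:70289675-70289704 (minus strand) for AARS, chr11:3057407-3057436 (minus) for CARS, chr7:30594834-30594863 (plus) for GARS and chr9:92293692-92293721 (minus) for IARS. MARS is at chr12:57488053-57488082 (plus), NARS at chr18:57621804-57621833 (minus), TARS at chr5:33440956-33440985 (plus) and YARS2 at chr12:32756076-32756105 (minus). AARS, CARS, IARS, MARS, NARS and TARS carry the same 8 bases, TGATGCAA on one strand or the other, GARS carries TGATGAAA and YARS2 carries TGATGGAA. The element begins between 33 bases before and 15 bases after the start site in all but AARS and YARS2, where it begins 187 and 197 bases before it.

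In parental cells the cytosolic synthetases were expressed at higher levels than the mitochondrial ones. The median of the 20 cytosolic genes in untransduced cells was 79.1 FPKM, and that of the 16 mitochondrial genes was 18.0 FPKM. EPRS, the dual enzyme for glutamate and proline, was the highest cytosolic gene, at 188, 193 and 194 FPKM in the 3 untransduced libraries. KARS followed it at 157, 153 and 153 FPKM, so EPRS exceeded KARS in each of them. At the other end of the cytosolic order stood FARSA, the catalytic subunit for phenylalanine, at 44.8, 43.6 and 43.3 FPKM, and CARS (cysteine) at 32.9, 31.7 and 32.3 FPKM.

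The mitochondrial genes were spread more widely. IARS2, the mitochondrial isoleucine enzyme, stood at 218, 219 and 214 FPKM in untransduced cells, above every cytosolic gene. HARS2 (histidine) came next at 47.0, 46.1 and 45.0 FPKM. AARS2 (alanine) gave 5.78, 5.70 and 5.63 FPKM, and PARS2 (proline), the lowest member, gave 3.22, 3.23 and 3.50 FPKM. For 13 amino acids both enzymes carry paired gene names, and the cytosolic gene had the higher mean FPKM in 11 of the 13 pairs in each of the 6 groups. The exceptions were IARS with IARS2 and CARS with CARS2. In untransduced cells the median ratio of the cytosolic to the mitochondrial gene was 3.35, from 0.561 ± 0.00709 for IARS over IARS2 to 11.9 ± 0.0750 for AARS over AARS2 (SD, n = 3).

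**Figure D1:**
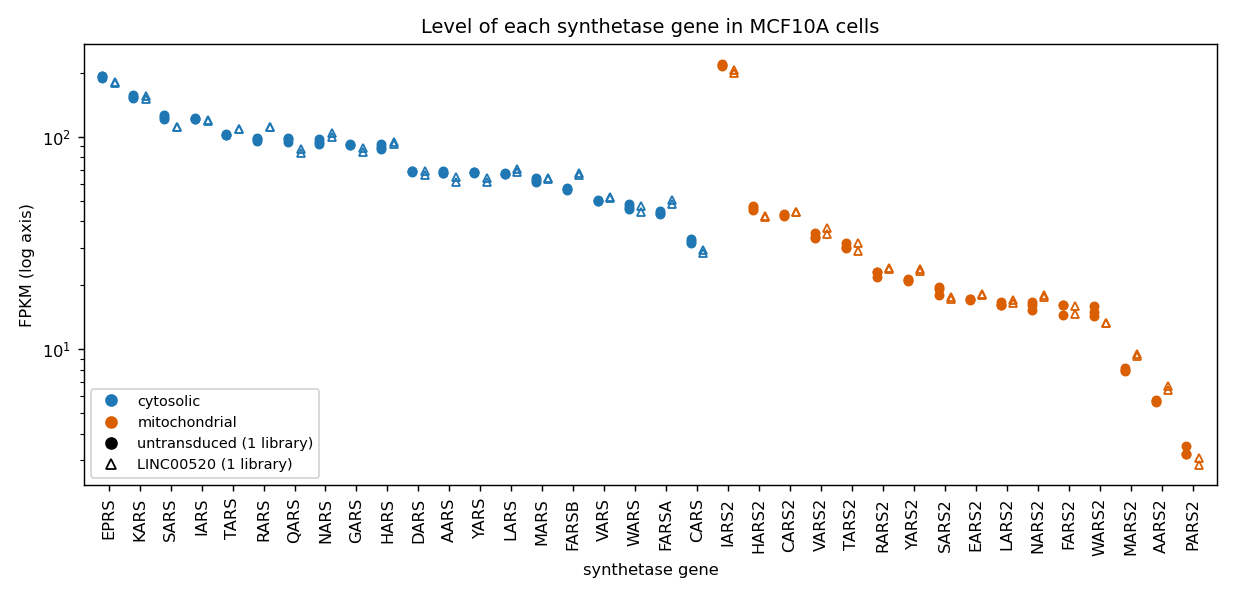
Level of each synthetase gene in FPKM on a log axis, 1 point per library, for untransduced cells (filled circles) and LINC00520 cells (open triangles), ordered within each class by the untransduced mean. IARS2 at 217 FPKM stands above the other mitochondrial genes, of which HARS2 is the next at 46.0 FPKM, and PARS2 is lowest at 3.31 FPKM.

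Between 4 h and 36 h of tamoxifen most synthetase genes that changed fell, in both compartments. By edgeR's quasi-likelihood test with Benjamini-Hochberg adjustment over 15572 genes, 15 of 36 members were lower and 2 were higher at 36 h. This makes 8 lower and 1 higher of 20 cytosolic genes, and 7 lower and 1 higher of 16 mitochondrial genes. Over all genes tested 39.4% were called, 20.5% lower and 18.8% higher. The median log2 fold change was -0.33 for the cytosolic and -0.40 for the mitochondrial genes, beside -0.04 for all genes tested. The difference between the 2 classes was not tested. With library totals alone, which move the median of all genes to -0.29, 23 members were lower and 0 higher, and the median of the members was -0.64. The 36 h libraries lay below both 4 h libraries in 24 members and above both in 4, and groups did not overlap in 71.1% of all genes. Without 36 h replicate 1 the test called 9 members, and without 36 h replicate 2 it called 6. By the authors' deposited q-values 12 members passed as lower and 2 as higher, where 28.1% of all genes passed. FARSA, MARS, MARS2, PARS2 and VARS were called lower under every alternative run.

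MARS2, the mitochondrial methionine enzyme (chr2:198570087-198573113, hg19), had the largest fall. It stood at 62.1 and 57.2 CPM at 4 h and at 9.08 and 7.97 CPM at 36 h. Both 36 h libraries were thus far below both 4 h libraries, and also below the 23.7 CPM of the 0 h library and the 24.0 CPM of the 12 h library. The fall from 4 h was 6.96-fold (log2 -2.80, SE 0.186, adjusted p = 4.76e-05 by edgeR's quasi-likelihood test).

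The cytosolic methionine enzyme MARS went from 159 and 163 CPM at 4 h to 70.1 and 65.1 CPM at 36 h, a fall of 2.38-fold (log2 -1.25, SE 0.149, adjusted p = 0.000651 by edgeR). The 12 h library, at 137 CPM, and the 0 h library, at 129 CPM, both lay between. In FPKM, MARS exceeded MARS2 by 2.82 ± 0.208 times at 4 h and by 8.51 ± 0.368 times at 36 h (SD, n = 2). Both methionine genes were therefore lower at 36 h, and by unequal amounts. The deposited locus of MARS covers a bundle of rows that also holds DDIT3, GLI1 and ARHGAP9, and the strand setting of the counting was not given in the sources used here.

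The phenylalanine enzyme of the cytosol is built from FARSA, the catalytic subunit, and FARSB, its partner. FARSA stood at 77.7 and 84.1 CPM at 4 h and at 29.5 and 18.5 CPM at 36 h. That is a fall of 3.35-fold (log2 -1.74, SE 0.230, edgeR adjusted p = 0.00105), and the 36 h libraries also lay below the 42.8 CPM of 0 h. FARSB stood at 65.1 and 58.9 CPM at 4 h and at 40.1 and 38.9 CPM at 36 h, a fall of 1.57-fold (log2 -0.65, SE 0.157, edgeR adjusted p = 0.0136). FARSB lost its call when either 36 h library was left out, with edgeR adjusted p of 0.101 without replicate 1 and 0.125 without replicate 2. FARSB had 72.9 CPM at 0 h and 54.4 CPM at 12 h, so its highest library was the untreated one, while the highest FARSA libraries were those of 4 h. The mitochondrial enzyme FARS2, a single chain, went from 26.3 and 34.5 CPM to 16.9 and 19.1 CPM (log2 -0.76, SE 0.203, edgeR adjusted p = 0.0200). Without 36 h replicate 1 or 2 the FARS2 call was lost (edgeR adjusted p = 0.142 and 0.0636).

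VARS, the cytosolic valine enzyme, held 176 and 115 CPM at 4 h and 66.2 and 54.4 CPM at 36 h. Its 4 h libraries stood apart from each other, and both exceeded the 36 h libraries (2.41-fold lower, log2 -1.27, SE 0.225, edgeR adjusted p = 0.00384). VARS2, its mitochondrial counterpart, has a row that also carries the symbol GTF2H4, so its counts may not be its own alone. It went from 42.0 and 41.0 CPM to 24.7 and 21.1 CPM (log2 -0.85, SE 0.172, edgeR adjusted p = 0.00647). Without 36 h replicate 2 the VARS2 call was lost (edgeR adjusted p = 0.0810). Both valine genes had their lowest libraries at 36 h. Further VARS and VARS2 rows on alternative haplotypes of chromosome 6, 11 in all, held 0 fragments.

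AARS, the cytosolic alanine enzyme, stood at 198 and 240.3 CPM at 4 h and at 132 and 123 CPM at 36 h (log2 -0.78, SE 0.162, edgeR adjusted p = 0.00735). Its partner AARS2 gave 23.2 and 26.3 CPM at 4 h and 26.2 and 22.1 CPM at 36 h, and these libraries overlapped (log2 -0.03, SE 0.184, edgeR adjusted p = 0.906). Without 36 h replicate 2 the AARS call was lost (edgeR adjusted p = 0.0610). The serine genes were ordered the other way. SARS2 (a row that FBXO17 shares) went from 23.8 and 23.6 CPM to 12.4 and 11.0 CPM (log2 -1.01, SE 0.185, edgeR adjusted p = 0.00434), and missed the threshold by the authors' deposited q-value of 0.0552. The cytosolic SARS, at 132 and 175 CPM against 117 and 110.4 CPM, did not pass the test (log2 -0.43, SE 0.179, edgeR adjusted p = 0.0904).

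PARS2, the lowest-expressed member, went from 9.29 and 11.5 CPM at 4 h to 4.98 and 3.61 CPM at 36 h, with no overlap (log2 -1.25, SE 0.253, edgeR adjusted p = 0.00655). EARS2, the mitochondrial glutamate enzyme, went from 58.3 and 56.2 CPM to 34.8 and 36.4 CPM (log2 -0.69, SE 0.155, edgeR adjusted p = 0.0106), and lost the call without 36 h replicate 1 or 2 (adjusted p = 0.115 and 0.0795). The remaining falls were those of WARS (tryptophan, log2 -0.64), HARS (histidine, -0.57), IARS (isoleucine, -0.51) and CARS2 (-0.48). IARS and CARS2 lay close to the threshold, with edgeR adjusted p of 0.0400 and 0.0497, and lost the call with DESeq2 (adjusted p = 0.0563 and 0.106) and without either 36 h library.

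The genes of the histidine enzymes lie head to head and moved in opposite directions. In the files HARS spans chr5:140053491-140070971 and HARS2 spans chr5:140071018-140078889 (hg19), with 46 bp between them. HARS stood at 108 and 127 CPM at 4 h and at 78.7 and 79.0 CPM at 36 h, a fall of 1.49-fold (log2 -0.57, SE 0.157, edgeR adjusted p = 0.0221). HARS2 stood at 34.1 and 33.7 CPM at 4 h and at 48.9 and 60.9 CPM at 36 h, a rise of 1.62-fold (log2 0.69, SE 0.175, edgeR adjusted p = 0.0162). Neither gene's 4 h and 36 h libraries overlapped. In FPKM, HARS exceeded HARS2 by 4.15 ± 0.596 times at 4 h and by 1.73 ± 0.262 times at 36 h (SD, n = 2). With library totals alone HARS2 kept its direction and lost its call (log2 0.43, edgeR adjusted p = 0.0709), as it did without 36 h replicate 2 (log2 0.53, adjusted p = 0.189). HARS lost its call without either 36 h library, with edgeR adjusted p of 0.153 and 0.150.

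The stretch between the RefSeq start sites of HARS and HARS2 is printed because both genes are transcribed away from it. It spans chr5:140691371-140691454 in GRCh38.p14, is 84 bases long with 59.5% G and C and 9 CG steps, and is given on the plus strand, the strand of HARS2. The ATF4 element was not found in the window of either gene.
HARS-HARS2: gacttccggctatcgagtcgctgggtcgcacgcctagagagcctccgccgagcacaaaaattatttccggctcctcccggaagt

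DARS, the aspartate enzyme, was the other member that rose. It stood at 109 and 143 CPM at 4 h and at 184 and 196 CPM at 36 h (log2 0.59, SE 0.175, edgeR adjusted p = 0.0298). With library totals alone its log2 fold change was 0.34 and the call was lost (edgeR adjusted p = 0.137), and it was also lost when either 36 h library was left out (adjusted p = 0.0837 and 0.152). QARS (glutamine) pointed the same way, with 123 and 145 CPM against 152 and 176 CPM, and did not pass the test (log2 0.29, edgeR adjusted p = 0.192).

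The other members did not pass the test between 4 h and 36 h. LARS2, the mitochondrial leucine enzyme, came closest, with 66.1 and 69.3 CPM at 4 h and 51.8 and 49.1 CPM at 36 h (log2 -0.42, SE 0.152, edgeR adjusted p = 0.0576). TARS (270.1 and 344 CPM against 248 and 217 CPM) and NARS (194 and 221 CPM against 176 and 181 CPM) also had both 36 h libraries below both 4 h libraries. So did YARS2 (39.5 and 49.9 CPM against 35.3 and 33.6 CPM) and NARS2 (42.9 and 52.8 CPM against 40.1 and 38.8 CPM). IARS2, the most abundant mitochondrial member, held 610.2 and 634 CPM at 4 h and 652 and 637 CPM at 36 h (log2 0.05, SE 0.150, edgeR adjusted p = 0.817). The libraries overlapped in TARS2 (31.1 and 40.8 CPM against 38.6 and 38.5 CPM) and in RARS2 (29.4 and 41.7 CPM against 40.2 and 43.1 CPM).

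**Figure D2:**
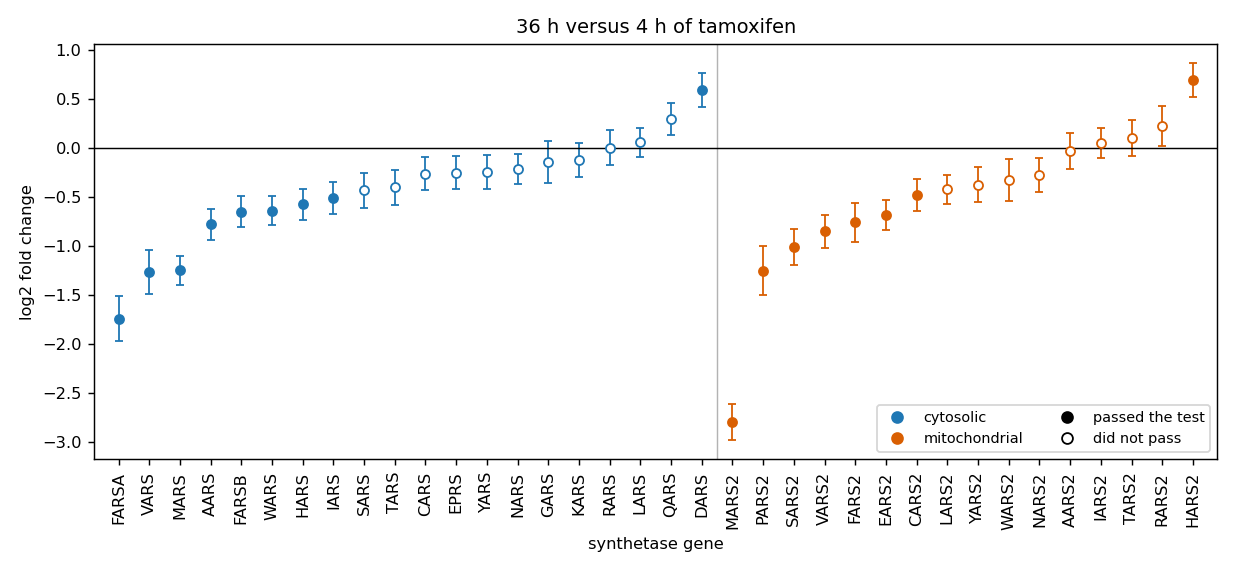
Log2 fold change of each synthetase gene between 36 h and 4 h of tamoxifen from the edgeR fit (2 libraries each), with bars of 1 standard error, cytosolic genes left and mitochondrial genes right. MARS2 lies lowest at -2.80, followed by FARSA at -1.74, and only HARS2 (0.69) and DARS (0.59) passed the test above 0.

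The enzymes that serve both compartments did not pass the test in any comparison of the time course. GARS, the glycine enzyme, held 106 CPM at 0 h, 131 and 86.0 CPM at 4 h, 95.3 CPM at 12 h, and 94.4 and 102 CPM at 36 h. KARS held 207 CPM at 0 h, 214 and 282 CPM at 4 h, 232 CPM at 12 h, and 229 and 227 CPM at 36 h. For both genes the 4 h libraries enclosed the 36 h libraries. From 4 h to 36 h the log2 fold change was -0.14 ± 0.21 for GARS and -0.12 ± 0.17 for KARS (estimate ± SE), sizes that leave modest changes undetectable with these libraries.

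Of the 8 enzymes of the multisynthetase complex, DARS was higher and MARS and IARS were lower at 36 h, and the list's median log2 fold change was -0.06. Over all genes tested 18.8% were higher and 20.5% lower. The calls of DARS and IARS were lost without either 36 h library, as given above. RARS (arginine), at 182 and 248 CPM against 215 and 216 CPM, and LARS (leucine), at 326 and 371 CPM against 358 and 367 CPM, had 36 h libraries inside the range of the 4 h libraries. Among the 3 scaffolds, AIMP2 was lower at 36 h, with 20.8 and 29.8 CPM at 4 h and 11.1 and 11.5 CPM at 36 h (log2 -1.16, SE 0.224, edgeR adjusted p = 0.00549). AIMP1 and EEF1E1 did not pass the test.

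Cytosolic members known as ATF4 targets and the other cytosolic members had medians close to each other. Of 12 known targets 4 were lower (MARS, AARS, WARS and IARS) and 0 higher, with a median of -0.33. Over all genes tested 20.5% were lower and 18.8% higher. Of the 8 other cytosolic genes 4 were lower (FARSA, VARS, FARSB and HARS) and 1 higher (DARS), with a median of -0.35. Of the 7 cytosolic genes whose promoter element is printed above, AARS, IARS and MARS were lower and CARS, GARS, NARS and TARS did not pass the test. In the list of ATF4 itself and its targets outside the synthetases, 16 of 29 tested were lower and 4 higher, with a median of -0.78. Among them SLC7A5, a transporter of large neutral amino acids, had -3.31 and its partner chain SLC3A2 had -1.99. ASNS, which makes asparagine, had -2.16, PHGDH, the first enzyme of serine synthesis, had -1.95, and the lipoprotein receptor VLDLR had 3.43. ATF4 itself had a mean of 293 CPM at 4 h and 248 CPM at 36 h. The stress genes DDIT3 and DDIT4 had higher means at 36 h (7.45 and 830 CPM) than at 4 h (2.32 and 406 CPM).

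Other genes of translation were compared between 4 h and 36 h, without a test between lists. Of 5 cytosolic elongation factor genes 2 were higher, EEF1G with log2 0.58 and EEF1A1 with 0.77, and 0 were lower. Over all genes tested 18.8% were higher. EEF1A1 held 0 fragments in the untransduced libraries of the other experiment, so its counts are in doubt. Of 13 mitochondrial translation factors 3 were lower and 0 higher, TUFM with -0.79, TSFM with -0.75 and GFM1 with -0.51, a share of lower genes near the 20.5% of all genes. Of 7 genes of the integrated stress response upstream of ATF4 (the eIF2 kinases, their substrate EIF2S1 and phosphatase subunits), PPP1R15A (0.75), EIF2AK2 (0.61) and EIF2AK4 (0.60) were higher and PPP1R15B (-0.89) was lower. The shares over all genes were again 18.8% higher and 20.5% lower.

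**Figure D3:**
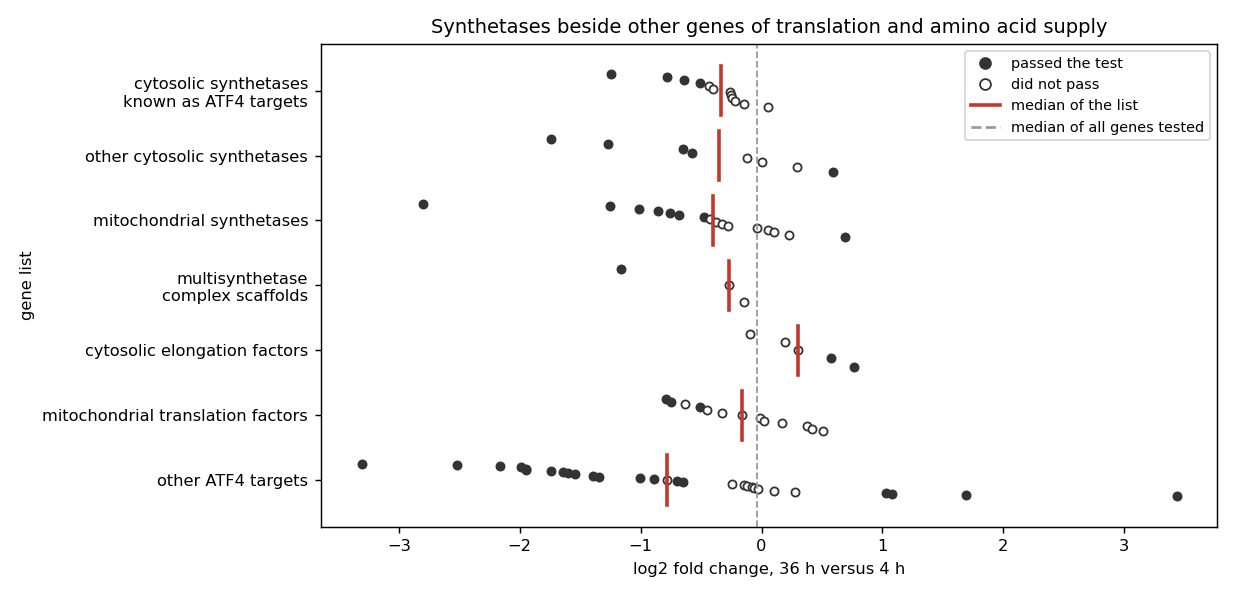
Log2 fold change between 36 h and 4 h for each gene of 7 lists, 1 point per gene, with red bars for list medians and a dashed line for the median of all genes tested. The 3 synthetase lists have medians between -0.40 and -0.33, the list of other ATF4 targets, ATF4 included, -0.78 and the elongation factors 0.30.

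Cell markers also differed between 4 h and 36 h, and their part in the result was not tested. The summed level of 7 breast epithelial markers was 7975 to 8313 CPM of the library total at 4 h and 2867 to 3153 at 36 h, with 5 of 7 lower (KRT5 log2 -1.42). At 36 h KRT5 held 22473 to 47192 fragments and KRT18, the next of these markers, 5603 to 12162, so the sum mainly followed KRT5. Over all genes tested 20.5% were lower and 18.8% higher. The 6 immune or blood markers summed to 10.2 to 12.0 at 4 h and 40.1 to 76.7 at 36 h. Of these only CD68 was high enough to be tested (log2 2.69), while at 36 h CD3E had 0 to 1 fragments and PTPRC had 0 to 2. The 6 fibroblast markers summed to 89.8 to 94.2 at 4 h and 153 to 170 at 36 h, and DCN (log2 1.75) was the 1 member of 2 tested that was higher.

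Against the single library at 0 h, few members passed the test. All comparisons with 0 h share that library, and the 0 h and 12 h libraries were assumed to vary like the replicated times. At 4 h MARS2 was the only member called, 2.52-fold higher than at 0 h (log2 1.33, SE 0.217, adjusted p = 0.0148 by edgeR's quasi-likelihood test), where 6.24% of all genes were called, 3.15% higher and 3.09% lower. The test by limma on log2(FPKM + 1) called 0 members, DESeq2 called 2, and without 4 h replicate 1 the count was 9 higher. In the authors' deposited table MARS2 and FARSA passed, both higher, where 8.97% of all genes passed. In the edgeR fit FARSA, with 42.8 CPM at 0 h, did not pass (log2 0.92, SE 0.280, adjusted p = 0.0954).

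At 12 h edgeR's test called 0 of 36 members against 0 h, where 4.24% of all genes were called, 3.04% higher and 1.2% lower. DESeq2 and limma also called 0, the authors' deposited table called 1 (FARSA, higher) where 7.01% of all genes passed, and leaving out either 4 h library gave 2. At an unadjusted p under 0.05 there were 3 members. They were WARS, with 69.4 CPM at 0 h and 111 CPM at 12 h, FARSA, with 42.8 and 71.5 CPM, and EPRS, with 992 and 635 CPM.

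At 36 h 5 members were lower than at 0 h and 0 higher by edgeR, where 19.4% of all genes were called, 9.36% lower and 9.99% higher. They were MARS2 (log2 -1.46, SE 0.207), MARS (-0.93, SE 0.174), VARS (-1.28, SE 0.262), FARSB (-0.88, SE 0.185) and VARS2 (-0.70, SE 0.202), with adjusted p from 0.00273 for MARS2 to 0.0458 for VARS2, whose row is the one shared with GTF2H4. At 0 h VARS stood at 146 CPM and VARS2 at 37.4 CPM. By the authors' deposited q-values 5 members passed as lower and 1 as higher (DARS), where 16.3% of all genes passed. MARS2 was called under every alternative run. With library totals alone the count was 15 lower. It was 14 without 4 h replicate 1, 10 without 4 h replicate 2 and 2 without 36 h replicate 2.

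Taking group means, 19 of 36 members had their highest level at 4 h (11 cytosolic and 8 mitochondrial). The lowest level was at 36 h in 22 members (11 of each class). The same count was not made over all genes, so it cannot tell a trait of the synthetases from a general trend. The means at 0 h and 12 h rest on 1 library each, and some differences between times were small. For GARS, counted as highest at 4 h, the 4 h libraries enclosed all other libraries of the time course. The summed CPM of the cytosolic genes was 4111 at 0 h, 4145 and 4794 at 4 h, 3888 at 12 h, and 3646 and 3593 at 36 h. WARS, whose transcription is raised by interferon, had 69.4 CPM at 0 h, 102 and 99.4 CPM at 4 h, 111 CPM at 12 h, and 66.6 and 62.3 CPM at 36 h. Its 36 h level was below 4 h by edgeR (log2 -0.64, SE 0.149, adjusted p = 0.0119), and the call was lost without either 36 h library (adjusted p = 0.0834 and 0.139). Of 9 interferon-induced genes set beside it, 7 were tested. Higher at 4 h than in the single 0 h library were 4 of the 7, GBP1 with log2 2.73 and IRF1 with 1.42, where 3.15% of all genes were higher. Lower at 36 h than at 4 h were 5 of the 7, GBP1 with -2.65 and IRF1 with -1.74, where 20.5% of all genes were lower. WARS itself did not pass the test at 4 h against 0 h (log2 0.53). Its level was highest at 12 h, where GBP1 had 29.6 CPM after a mean of 94.7 CPM at 4 h. GBP2 had a mean of 17.6 CPM at 4 h and 21.4 CPM at 36 h. Whether interferon had a part in these levels was not tested.

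**Figure D4:**
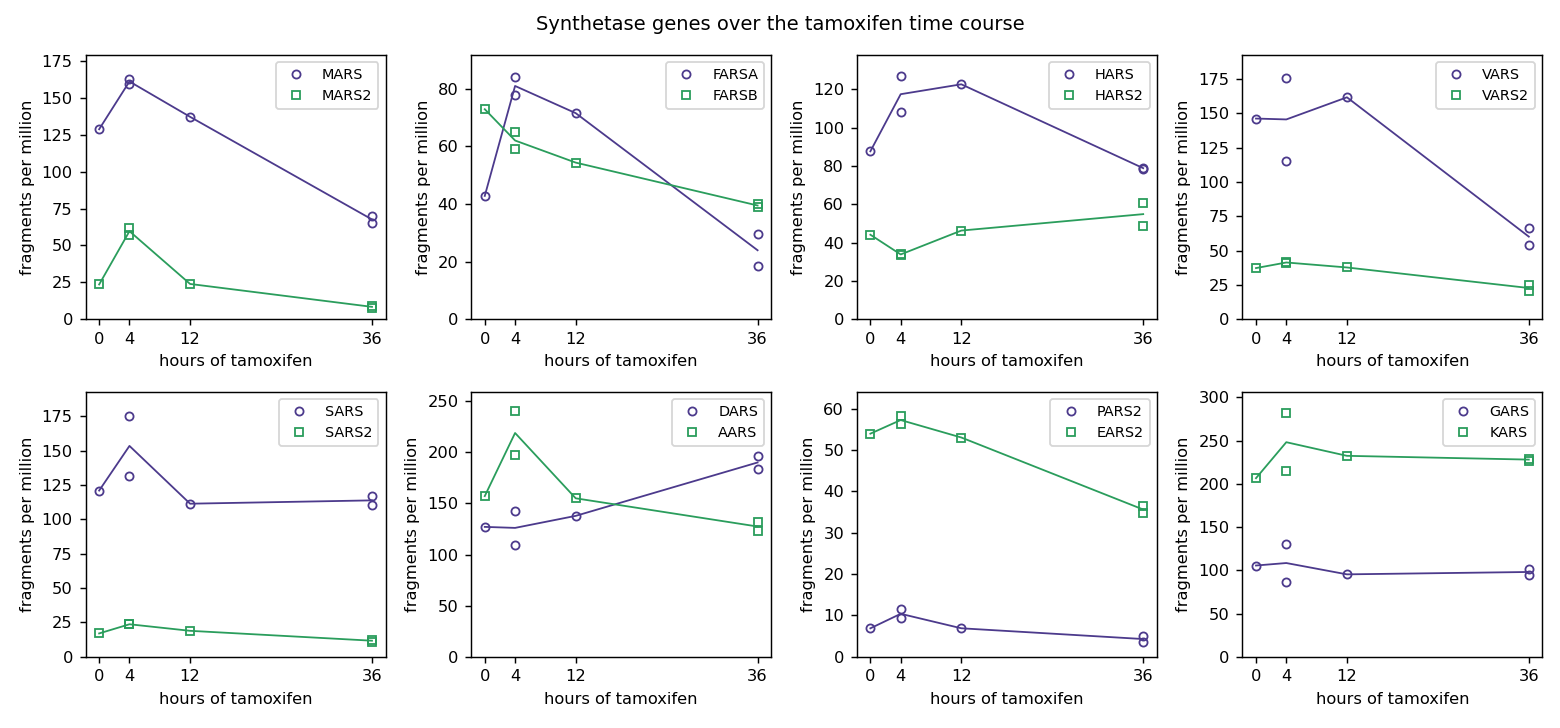
CPM after TMM scaling against hours of tamoxifen for 8 pairs of synthetase genes, 1 symbol per library, with lines through group means. MARS2 peaks at 4 h (62.1 and 57.2) and is lowest at 36 h (9.08 and 7.97), while HARS falls and HARS2 rises between 4 h and 36 h.

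Over-expression of LINC00520 in parental cells went with small shifts in both directions. By edgeR's quasi-likelihood test with Benjamini-Hochberg adjustment over 12790 genes, 8 of 36 members were higher and 10 lower than in untransduced cells. Over all genes tested 50.0% were called, 25.2% higher and 24.8% lower, so the members' share was the same as the background. Of the cytosolic genes 5 were higher and 7 lower, and of the mitochondrial genes 3 were higher and 3 lower. The median log2 fold change was -0.02 for the cytosolic and 0.04 for the mitochondrial genes, beside 0.00 for all genes tested. The largest shift was 1.18-fold. By the authors' deposited q-values 0 of 36 members passed, where 12.9% of all genes did, and the lowest q-value was 0.0635. Without LINC00520 replicate 2 edgeR called 11 members. Besides the authors' q-values, 8 members kept the call under every alternative: FARSB, RARS, FARSA, MARS2 and AARS2 (higher), and QARS, SARS and CARS (lower).

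Both subunits of the cytosolic phenylalanine enzyme were higher. FARSB stood at 127, 125 and 127 CPM in untransduced cells and at 149.9 and 147 CPM with LINC00520 (log2 0.23, SE 0.0316, edgeR adjusted p = 1.29e-06). FARSA stood at 80.0, 77.8 and 77.3 CPM and at 86.2 and 89.7 CPM (log2 0.16, SE 0.0365, edgeR adjusted p = 0.000633). RARS went from 199.6, 206 and 204 CPM to 231 and 232 CPM (log2 0.19, SE 0.0292, edgeR adjusted p = 9.37e-06). NARS (asparagine), whose row also carries the symbol asnS, went from 270.4, 264 and 259.7 CPM to 289 and 277 CPM (log2 0.10, SE 0.0303, edgeR adjusted p = 0.0106). In each of these genes the LINC00520 libraries lay above all untransduced libraries. TARS (threonine) was the fifth higher cytosolic gene, with log2 0.09.

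QARS had the smallest p among the lower cytosolic genes, with 234, 223 and 231 CPM in untransduced cells and 199 and 207 CPM with LINC00520 (log2 -0.18, SE 0.0314, edgeR adjusted p = 5.64e-05). SARS went from 229, 219 and 222 CPM to 201 and 202 CPM (log2 -0.15, SE 0.0303, edgeR adjusted p = 0.000243). CARS went from 83.3, 80.1 and 81.5 CPM to 71.1 and 73.3 CPM (log2 -0.18, SE 0.0374, edgeR adjusted p = 0.000334). YARS (tyrosine) went from 211, 209 and 212 CPM to 198 and 190.2 CPM (log2 -0.12, SE 0.0301, edgeR adjusted p = 0.00255). None of these groups overlapped, as was so for 66.5% of all genes. AARS (log2 -0.11), EPRS (-0.09) and GARS (-0.08) were the other lower cytosolic genes.

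GARS held 249, 250.1 and 252 CPM in untransduced cells and 241 and 232 CPM with LINC00520 (edgeR adjusted p = 0.0240). KARS held 312, 302 and 305 CPM and 308 and 299 CPM, and its libraries overlapped (log2 -0.01, SE 0.0293, edgeR adjusted p = 0.740). WARS, with 125, 121 and 121 CPM against 116 and 123 CPM, overlapped as well (log2 -0.04, edgeR adjusted p = 0.400). EPRS stood at 967, 992 and 994 CPM against 927 and 920.2 CPM.

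Among mitochondrial genes MARS2 was higher, with 23.9, 24.1 and 24.6 CPM in untransduced cells and 28.3 and 28.7 CPM with LINC00520 (log2 0.24, SE 0.0535, edgeR adjusted p = 0.000757). AARS2 went from 28.3, 27.9 and 27.6 CPM to 31.5 and 32.7 CPM (log2 0.20, SE 0.0519, edgeR adjusted p = 0.00292). YARS2 went from 44.3, 45.1 and 44.9 CPM to 49.4 and 50.4 CPM (log2 0.16, SE 0.0456, edgeR adjusted p = 0.00643). By these calls the tyrosine pair split, YARS lower and YARS2 higher, and so did the alanine pair, AARS lower and AARS2 higher. The calls of YARS, YARS2 and AARS did not hold under every alternative, even with the authors' q-values set aside.

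HARS2 was lower, with 108, 107 and 103 CPM in untransduced cells and 97.7 and 97.9 CPM with LINC00520 (log2 -0.12, SE 0.0348, edgeR adjusted p = 0.00780). WARS2 went from 40.0, 43.8 and 41.4 CPM to 37.2 and 36.9 CPM (log2 -0.17, SE 0.0527, edgeR adjusted p = 0.00961). IARS2 went from 721, 736 and 716 CPM to 695 and 677 CPM (log2 -0.08, SE 0.0278, edgeR adjusted p = 0.0226). PARS2, at 7.44, 7.46 and 8.07 CPM against 6.59 and 7.09 CPM, did not pass the test (log2 -0.16, SE 0.0996, edgeR adjusted p = 0.197). It had the widest error of the 36 members, at the lowest level.

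**Figure D5:**
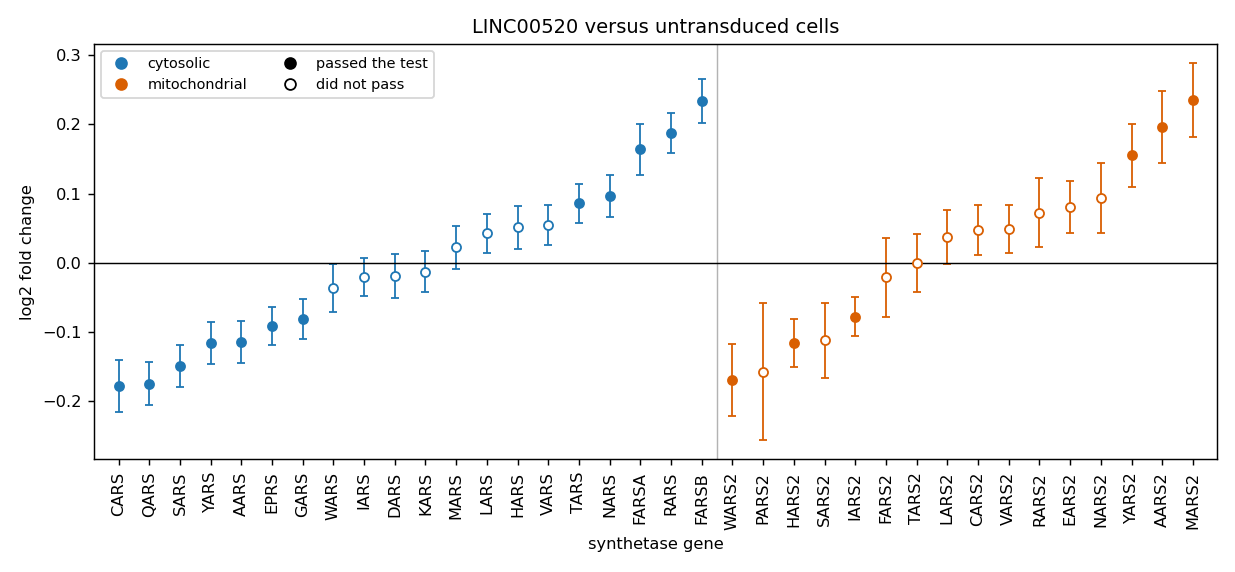
Log2 fold change of each synthetase gene between LINC00520 and untransduced cells from the edgeR fit (2 and 3 libraries), with bars of 1 standard error. Values run from -0.18 for CARS to 0.24 for MARS2, with higher and lower genes in both classes.

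Of the members known as ATF4 targets more were lower than higher with LINC00520. Of 12, 6 were lower (SARS, CARS, YARS, AARS, EPRS and GARS) and 2 higher (NARS and TARS), with a median log2 fold change of -0.06. Over all genes tested 24.8% were lower and 25.2% higher, with a median of 0.00. Of these members' calls only those of SARS and CARS held under every alternative besides the authors' q-values, by which 0 members passed. Of the 8 other cytosolic genes 1 was lower (QARS) and 3 were higher (FARSB, RARS and FARSA), with a median of 0.05. The difference between these lists was not tested. Genes with the printed promoter element were found on both sides, AARS, CARS and GARS among the lower and NARS, TARS and YARS2 among the higher. ATF4 itself was lower (log2 -0.24, edgeR adjusted p = 4.22e-07), and of 27 tested genes in the list of ATF4 and its targets outside the synthetases, ATF4 included, 16 were lower and 3 higher, with a median of -0.13. Among them DDIT4, an inhibitor of mTORC1, had -0.56, STC2, a secreted stress-induced glycoprotein, had -0.41, and the cystine transporter SLC7A11 had 0.45.

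All 3 scaffolds of the multisynthetase complex were higher with LINC00520, AIMP2 with log2 0.32 (SE 0.0555, edgeR adjusted p = 3.68e-05), EEF1E1 with 0.17 (adjusted p = 0.0229) and AIMP1 with 0.16 (adjusted p = 0.00186). Of the 8 enzymes of the complex RARS was higher, and QARS and EPRS were lower. All 4 tested cytosolic elongation factors were lower, EEF2 with -0.26 and EEF1G with -0.18. EEF1A1 was not tested: it held 0 fragments over the 3 untransduced libraries and 490984 over the 2 LINC00520 libraries, so its counts here are in doubt. Over all genes tested 25.2% were higher and 24.8% lower. Of 13 mitochondrial translation factors 3 were higher and 3 lower, GFM1 with 0.26 and TUFM with -0.22. Cell markers differed as well, and their part in these results was not tested. Of 7 breast epithelial markers 2 were higher, KRT14 (log2 1.44) and EGFR (0.14), and 3 were lower, EPCAM (-0.74), KRT18 (-0.36) and CDH1 (-0.22), while their summed level was 6702 to 6957 CPM of the library total in untransduced and 6782 to 7005 in LINC00520 libraries. The 6 immune or blood markers summed to 17.5 to 19.6 and 18.6 to 19.8, and HBB (0 to 3 and 13 to 15 fragments) was the 1 of 2 tested that was higher (log2 3.97). The 6 fibroblast markers summed to 95.6 to 98.5 and 95.3 to 95.5 by library total, without overlap. After TMM scaling the 3 tested ones summed to 96.1, 94.3 and 93.5 CPM in untransduced and 94.4 and 93.9 CPM in LINC00520 libraries, which overlapped. Of these 3, 0 were called by edgeR (0 at an unadjusted p under 0.05).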

How the data were processed

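The members and all gene lists were chosen with earlier results of these data known. Per the submitters' processing notes, bases were called with CASAVA 1.4, reads were aligned to hg19 with TopHat, and genes were quantified with Cuffdiff. Not given in the sources used here: the annotation, the strand setting, and which TopHat and Cuffdiff releases were run. Per the file headers, the authors' tables hold an estimated count of fragments and an FPKM for each gene and library. The authors' deposited calls compare conditions by pairs, with a log2 fold change and a q-value. In the time course the authors' deposited fold column holds some values outside any log2 range, so only its sign was used, as that of a score. The members' own values were not among these. They ran from -2.78 (MARS2, 36 h against 4 h) to 1.39 (MARS2, 4 h against 0 h). Of 13 samples, 11 matched columns by name, and the 2 samples of a control lincRNA were not analysed here. A further 7 libraries in the table matched no label and were not used.

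Rounding made every estimated count whole (92.4% to 99.9% of a library's values already were). A gene needed status OK and an FPKM reaching 1 in 2 over-expression libraries or in 1 time-course library. This left 12790 and 15572 genes, all 36 members among them. edgeR 4.0.16 (R 4.3.3) was run with TMM factors and the quasi-likelihood test, 2-sided, with a coefficient for each group and a spread shared within an experiment, and Benjamini-Hochberg adjustment over all genes at 0.05. The common coefficient of variation was 0.0249 for over-expression (residual degrees of freedom: 3) and 0.162 for the time course (2). The scripts were tested on simulated data. No replicate pair agreed within sampling noise (mean chi-square per degree of freedom 1.93 or more). limma 3.58.1 and DESeq2 1.42.0 were alternatives. File starts were shifted by 1 to give 1-based hg19 positions. For 26 members the deposited locus was also that of another row, often an antisense RNA, so reads of overlapping genes may be uncertain. Values in every library were given for the 4 called members of smallest p in each comparison, class and direction, the 2 highest and 2 lowest of each class by untransduced FPKM, and GARS, KARS and WARS. Other members were added after their values were seen.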

Additional observations from a re-analysis of the deposited data

How the results depend on the processing

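No direction of a called member reversed under any alternative run. The authors' q-values called 0 members for LINC00520 (18 in the edgeR fit), and leaving out 1 library gave 11 to 18. For 36 h against 4 h leaving out 1 library gave 6 to 22 (17), and library totals alone gave 23. For 4 h against 0 h (1) DESeq2, no FPKM filter and the authors' q-values each gave 2, limma gave 0 with a pseudocount of 1 or 0.1, and leaving out 1 library gave 1 to 9. For 12 h against 0 h (0) the authors' q-values gave 1, and leaving out 1 library gave 0 to 2. For 36 h against 0 h (5) library totals alone gave 15, limma gave 3 with either pseudocount, and leaving out 1 library gave 2 to 14. With replicate number as a block the counts were 13 for LINC00520 and 16 for 36 h against 4 h. Deviations of libraries with a shared number correlated over genes by -0.0516 and -0.0466 in the over-expression experiment. At 4 h and 36 h both numbers give the same 0.0982, since 2 libraries deviate from their mean by equal amounts. Such values cannot tell whether libraries of 1 number shared a batch, and the main fit used no pairs. The cause of the changes in these counts was not tested. With 1 library at 0 h and at 12 h, and 2 residual degrees of freedom, modest changes in the time course were not detectable.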
